A study of Mus musculus with 6 samples.

Results

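The replication-dependent histone genes supply the core histones H2A, H2B, H3 and H4 and the linker histone H1 that package newly copied DNA. They were chosen by name, as every gene of the deposited table whose symbol begins with Hist1h, Hist2h, Hist3h or Hist4h, which gave 68 of 23337 genes. The family was put forward with the counts of these libraries already known, so its calls below are a description and not independent support for any pattern. It holds 6 H1, 18 H2A, 19 H2B, 12 H3 and 13 H4 genes. Of these, 54 lie in the Hist1 cluster on chromosome 13, 10 in the Hist2 cluster on chromosome 3, 3 in the Hist3 cluster on chromosome 11 and 1, Hist4h4, on chromosome 6.

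The cells were granulocyte-monocyte progenitors from the bone marrow of C57BL6 mice that carry ER-HOXA9, a fusion of the HOXA9 transcription factor to the estrogen receptor that is active while estradiol is present and holds the cells at the progenitor stage. The drug cultures received GSK-LSD1 at 200 nM, mercaptopurine at 5 µM and cerulenin at 5 µM together for 3 days. The vehicle cultures received DMSO for 3 days, and the day 0 cultures were taken untreated. All 6 cultures, drug, vehicle and day 0 alike, carried ER-HOXA9 and were kept in RPMI medium with serum, stem cell factor, glutamine and 0.5 µM beta-estradiol, with 2 biological replicates per group. GSK-LSD1 inhibits the histone demethylase LSD1, mercaptopurine is a purine analogue that interferes with nucleotide supply and DNA synthesis, and cerulenin inhibits fatty acid synthase. The 3 agents were given only in combination, so the share of each in a difference cannot be told apart. In these bulk samples, fewer cells of a type, such as cells in S phase, and less RNA per cell cannot be told apart either.

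Most mRNAs end in a poly(A) tail, but mRNAs of this family end just after a short RNA hairpin, the histone stem-loop. The stem-loop binding protein SLBP and the U7 ribonucleoprotein guide their cleavage there, and the messages are made in S phase and degraded when DNA synthesis stops. Some members also make polyadenylated mRNA from a signal further downstream, mainly in cells that leave the cycle. Poly(A) RNA was enriched with magnetic beads from the total RNA of these cultures, so the libraries sample the tailed part of the family's mRNA together with whatever untailed RNA the beads retained. The values below are therefore levels in poly(A)-selected RNA, not amounts of histone mRNA in the cells.

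Stem-loops are shown for 1 named member of each histone type that has one in its annotated transcript and for a second H4 gene, because this hairpin sets the family apart from other mRNAs. They were read from GENCODE M21 transcripts on GRCm38 and are written as DNA letters, with the 16 bases of the stem-loop in capitals.
Hist1h1e: cccaaaGGCTCTTTTCAGAGCC
Hist1h2ag: aacaaaGGCTCTTTTCAGAGCC
Hist1h2bg: cccaaaGGCTCTTTTCAGAGCC
Hist2h3c1: cacaaaGGCTCTTTTCAGAGCC
Hist1h4d: accaaaGGCCCTTTTCAGGGCC
Hist1h4j: cctaaaGGTCCTTTTCAGGACC

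The capital stretches lie at chr13:23621782-23621797 for Hist1h1e, chr13:22042483-22042498 for Hist1h2ag, chr13:23571843-23571858 for Hist1h2bg, chr3:96247327-96247342 for Hist2h3c1, chr13:23581950-23581965 for Hist1h4d and chr13:21735437-21735452 for Hist1h4j. Hist1h1e and Hist1h2ag are on the minus strand and the other 4 on the plus strand. A 16-base pattern for the hairpin matched annotated transcripts of 46 of the 68 members, at 24 to 61 bases past the last amino acid codon with a median of 34. The sequence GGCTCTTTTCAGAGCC was found in 10 H2A, 8 H2B, 5 H3 and 3 H1 genes. No H4 gene carried it: 7 H4 genes carried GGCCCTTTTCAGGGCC and 2 carried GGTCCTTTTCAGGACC. Of the 22 members without a match, 13 have annotated transcripts that stop within 3 bases of the coding sequence, so the hairpin region is missing from the annotation of those genes.

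Coding sequences of the family are close copies of each other, which bears on how reads were divided among its genes. The first 90 coding bases are shown for 4 H2B genes, with capitals where a base differs from Hist1h2bg. They lie at chr13:23571433-23571522 (plus strand) for Hist1h2bg, chr13:23574101-23574190 (minus strand) for Hist1h2bf, chr3:96221166-96221255 (plus strand) for Hist2h2be and chr3:96269752-96269841 (plus strand) for Hist2h2bb.
Hist1h2bg: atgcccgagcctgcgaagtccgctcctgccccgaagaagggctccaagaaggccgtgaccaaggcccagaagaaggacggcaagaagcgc
Hist1h2bf: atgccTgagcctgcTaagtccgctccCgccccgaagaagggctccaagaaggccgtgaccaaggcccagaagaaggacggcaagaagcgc
Hist2h2be: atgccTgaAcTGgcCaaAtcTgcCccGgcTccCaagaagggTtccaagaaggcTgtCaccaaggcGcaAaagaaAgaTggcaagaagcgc
Hist2h2bb: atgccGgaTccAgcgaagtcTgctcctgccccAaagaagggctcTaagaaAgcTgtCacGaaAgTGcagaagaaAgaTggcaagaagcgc

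Over the whole coding sequence of 378 bases, Hist1h2bf differed from Hist1h2bg at 7 bases, Hist2h2bb at 43 and Hist2h2be at 50. Across the family, the coding sequence of each gene was cut into all its 50-base words, and the share of words that also occur in another member was counted. The median share was 83.4% for H2A genes, 77.1% for H2B, 79.2% for H3 and 71.2% for H4, against 10.99% for H1. Coding words were fully shared in 11 members, among them Hist1h2ag and Hist1h2ad. A read from such a stretch cannot be assigned to 1 gene, and no source used here says how the counting treated it, so single values of these genes are uncertain and are not independent of each other. Only 11 of the 57 tested members shared under 30% of their words: the H1 genes Hist1h1a, Hist1h1b, Hist1h1c, Hist1h1d and Hist1h1e, and Hist2h2ab, Hist2h2bb, Hist2h2be, Hist2h4, Hist3h2a and Hist4h4. This set depends on the word length, with 9 members for words of 36 bases and 15 for words of 75 bases.

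The table counted 29 members over a model no longer than the coding sequence with its stop codon, which leaves out the stem-loop. The stem-loop lay inside the counted exons of 23 members and outside those of 23 others. Some models overlap. Hist1h2bq and Hist1h2br share all their exons, Hist1h2ap lies within Hist1h2ao and Hist2h2aa2 within Hist2h2aa1, and Hist1h2bq, Hist1h2br, Hist1h2ap and Hist2h2aa2 were at 0 in all 6 libraries. Hist1h4m and Hist1h4n also overlap and have the same coding sequence. Hist1h4n had 151 and 189 counts with the drugs, 219 and 175 with vehicle and 119 and 105 at day 0, while Hist1h4m had 1 count in a drug library, 1 in a day 0 library and 0 in the others. This pair was picked after its values were seen.

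Library totals were 11305666 to 16948697 counts, and 11283 genes passed the filter on low counts and were tested. The family took 10929 and 13042 counts in the drug libraries, 15814 and 13423 in the vehicle libraries and 10034 and 8294 in the day 0 libraries, between 0.0592% and 0.127% of each library. Rn45s, the ribosomal RNA precursor, which carries no poly(A) tail, took 15.7% and 15.9% of the drug libraries, 16.1% and 14.6% of the vehicle libraries and 20.4% and 24.6% of the day 0 libraries. Its log2 change was 0.07 for drugs over vehicle, -0.68 for vehicle over day 0 and -0.61 for drugs over day 0, and in edgeR only the last passed the test (adjusted p = 0.0234), while in DESeq2 the change for vehicle over day 0 passed too (adjusted p = 5.1e-07). Progenitor markers were detected in every library, with Kit at 1255 and 1233 CPM in drug, 1018 and 958 CPM in vehicle and 876 and 961 CPM in day 0 cultures. CPM are counts scaled to a common library size, here after TMM normalisation. The p-values measure only the spread between these cultures.

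Levels between genes were compared per length, as CPM per kilobase of the deposited gene model averaged over all 6 libraries. The 5 highest members were H2A genes of the Hist1 cluster: Hist1h2ag at 205 CPM per kb, Hist1h2ad at 143, Hist1h2ah at 139, Hist1h2af at 136 and Hist1h2an at 111. No other member passed 100 CPM per kb. Among tested members the median level was 22.01 CPM per kb. The median of tested H4 genes was 36.1 CPM per kb, of H2A genes 31.1, of H3 genes 22.4, of H2B genes 19.6 and of H1 genes 7.16. The lowest tested member was Hist4h4 at 0.227 CPM per kb, which has 5 to 14 counts in a library. The 11 members not tested were Hist1h1t, Hist1h2aa, Hist1h2ao, Hist1h2ap, Hist1h2bq, Hist1h2br, Hist1h4m, Hist2h2aa1, Hist2h2aa2, Hist3h2ba and the pseudogene Hist3h2bb-ps. Hist1h1t and Hist1h2aa are known from testis. The 57 tested members passed a filter that a gene high in only 1 group can pass, and they are not the whole family.

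Together the family was highest in the vehicle cultures, lower in the drug cultures and lowest at day 0. Its summed level was 875 and 842 CPM in drug cultures, 1250 and 1122 CPM in vehicle cultures and 600 and 689 CPM in day 0 cultures. The 3 groups did not overlap in this sum. The mean sum of the drug cultures was 0.724 ± 0.059 times that of the vehicle cultures and 1.33 ± 0.14 times that of day 0, and the vehicle mean was 1.84 ± 0.23 times that of day 0 (SD carried over from the groups, n = 2 each). No test was run on the sums, since the members were picked with these results known.

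**Figure D1:**
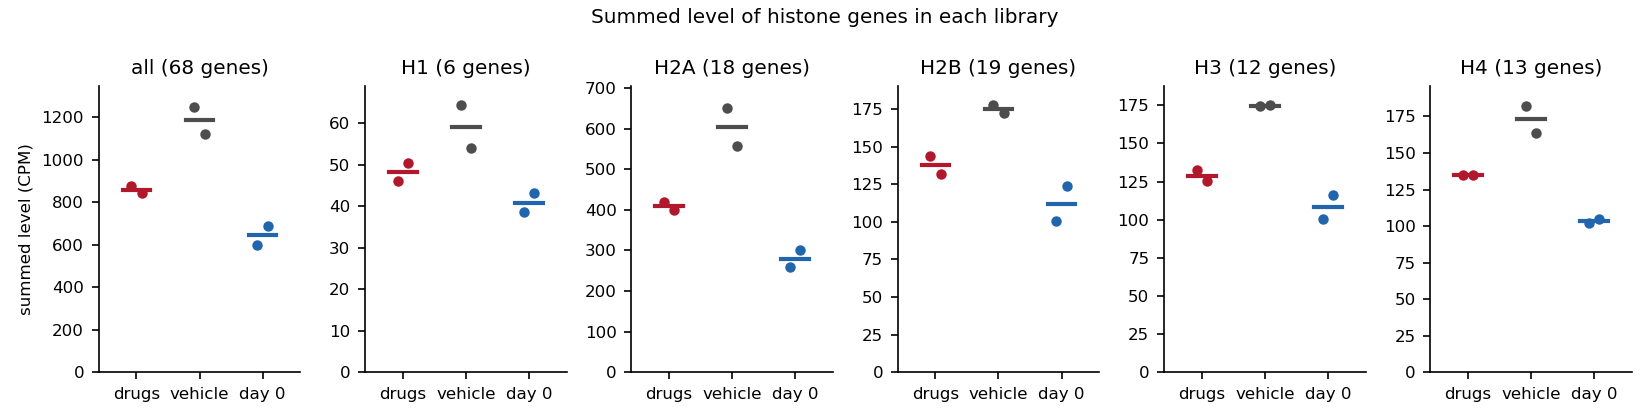
Summed level in CPM (vertical axes, from 0) of all 68 histone genes and of each histone type in drug, vehicle and day 0 cultures; each point is 1 library and each bar the mean of 2. In all 6 panels both vehicle points lie above both drug points and both day 0 points, and H2A has the largest sum, with 652 and 558 CPM in the vehicle cultures.

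H2A genes gave more counts than any other type in each library, with 47.8% and 47.5% in drug cultures, 52.1% and 49.7% in vehicle cultures and 43.2% and 43.7% of the family's counts at day 0. H2A summed to 418 and 400 CPM with the drugs, 652 and 558 CPM with vehicle and 259 and 301 CPM at day 0. H2B summed to 144 and 132 CPM with the drugs, 177 and 172 CPM with vehicle and 100.3 and 124 CPM at day 0. The groups did not overlap for either type. H3 summed to 132 and 125 CPM with the drugs, 174 and 175 CPM with vehicle and 100.3 and 116 CPM at day 0. H4 summed to 135 CPM in both drug cultures, 182 and 163 CPM with vehicle and 102 and 105 CPM at day 0. H1 summed to 46.1 and 50.3 CPM with the drugs, 64.3 and 53.9 CPM with vehicle and 38.6 and 43.1 CPM at day 0. The order of the groups was the same in all 5 types, and the drug mean was 0.815 times the vehicle mean for H1, against 0.676 times for H2A.

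The effect of the drugs was read against the vehicle cultures. Of the 57 tested members, 32 fell and 1 rose with the drugs (edgeR quasi-likelihood test, Benjamini-Hochberg adjusted p under 0.05 over all genes), while 13.8% of all tested genes fell and 18.1% rose. The median log2 change of the tested members was -0.41, beside 0.00075 over all tested genes. By type, 8 of 13 tested H2A genes, 10 of 12 H3 genes, 8 of 12 H4 genes and 6 of 15 H2B genes fell. DESeq2 called 7 H2A genes, 1 H3 gene, 1 H2B gene and 0 H4 genes lower, so outside H2A nearly all of these calls were lost with it. Of the 5 tested H1 genes none was called by edgeR or DESeq2, and 2 had an unadjusted p under 0.05, both with lower values in drug cultures. In 48 members both drug libraries lay below both vehicle libraries, a count that was not made over all tested genes.

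This count rests on few cultures. Leaving out 1 library changed it, as it did the count over all tested genes. The median log2 change of the members was -0.47 without drug replicate 1, -0.40 without drug replicate 2 and -0.35 without vehicle replicate 1. DESeq2 called 9 members lower, and 1044 of all 11283 tested genes, against 1560 in edgeR. The members had negative log2 changes in at least 53 of 57 cases under each of these.

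The H2A genes with the highest levels were also those with the smallest p in this comparison. Hist1h2an (chr13:21786826-21787218, 393 bases) had 40.0 and 40.7 CPM in drug cultures, 66.2 and 58.6 CPM in vehicle cultures and 26.1 and 30.3 CPM at day 0. Both drug values lay below both vehicle values and above both day 0 values. Hist1h2an fell by 0.63 ± 0.09 on the log2 scale with the drugs relative to vehicle (SE, edgeR adjusted p = 0.000184). Hist1h2ag (chr13:22042477-22042949, 473 bases) had 89.6 and 88.2 CPM with the drugs, 153 and 126 CPM with vehicle and 54.4 and 69.1 CPM at day 0. It fell by 0.65 ± 0.11 (edgeR adjusted p = 0.000493), with no overlap between any of the 3 groups.

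Hist1h2ad (chr13:23574471-23574863) had 53.8 and 51.5 CPM with the drugs, 84.0 and 73.4 CPM with vehicle and 35.1 and 39.2 CPM at day 0. Hist1h2ah had 50.9 and 50.1 CPM with the drugs, 80.2 and 69.2 CPM with vehicle and 33.9 and 37.6 CPM at day 0. Hist1h2af had 53.3 and 50.7 CPM with the drugs, 81.5 and 71.2 CPM with vehicle and 30.2 and 34.9 CPM at day 0. These 3 genes had nearly the same value in each library, and 100%, 96.4% and 80.6% of their coding words occur in other members. Their log2 changes with the drugs relative to vehicle were -0.58, -0.57 and -0.56, and all 3 fell (edgeR adjusted p between 0.000233 and 0.000468).

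Hist1h2ai had 38.8 and 37.0 CPM with the drugs, 58.3 and 49.7 CPM with vehicle and 25.7 CPM in both day 0 cultures, and fell by 0.52 ± 0.09 relative to vehicle (edgeR adjusted p = 0.000857). Hist1h2ac, whose model of 2493 bases runs far past its stem-loop, had 40.5 and 35.8 CPM with the drugs, 67.2 and 50.8 CPM with vehicle and 22.6 and 30.3 CPM at day 0. It fell by 0.63 ± 0.14 (edgeR adjusted p = 0.0039). In both genes the groups did not overlap.

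The H2B, H3 and H4 genes of this comparison had lower levels. Hist1h2bh had 7.69 and 6.39 CPM with the drugs, 10.7 and 10.8 CPM with vehicle and 6.22 and 7.31 CPM at day 0, and fell by 0.62 ± 0.15 (edgeR adjusted p = 0.00872). Here drugs and day 0 overlapped, and both lay below vehicle. Hist1h2bg, the H2B gene with the highest mean count, had 16.5 and 14.3 CPM with the drugs, 21.4 and 20.2 CPM with vehicle and 11.1 and 12.7 CPM at day 0, and fell by 0.44 ± 0.12 (edgeR adjusted p = 0.0138). Hist2h3c2, a copy of H3 in the Hist2 cluster, had 15.6 and 13.7 CPM with the drugs, 19.1 and 22.2 CPM with vehicle and 9.99 and 11.3 CPM at day 0, and fell by 0.49 ± 0.13 (edgeR adjusted p = 0.00978). Its groups did not overlap.

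Hist1h3h had 10.4 and 9.68 CPM with the drugs, 14.4 and 13.6 CPM with vehicle and 8.44 and 9.56 CPM at day 0, and fell by 0.48 ± 0.13 (edgeR adjusted p = 0.0128). Hist1h4k, the H4 gene with the highest mean count, had 14.5 and 15.6 CPM with the drugs, 20.7 and 17.5 CPM with vehicle and 12.5 CPM in both day 0 cultures, and fell by 0.34 ± 0.12 (edgeR adjusted p = 0.0462). Both genes had drug values between those of vehicle and day 0. The adjusted p of Hist1h4k lay just under the threshold. In DESeq2 the calls of Hist1h2bg (adjusted p = 0.0602), Hist1h3h (adjusted p = 0.0767) and Hist1h4k (adjusted p = 0.174) were lost.

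The single member that rose with the drugs was Hist2h2be, an H2B gene (chr3:96221121-96223738, 2618 bases) named here after its values were seen. It had 11.1 and 14.3 CPM with the drugs, 6.32 and 10.1 CPM with vehicle and 7.66 and 7.40 CPM at day 0. Both drug values lay above the other 4. Its log2 change was 0.64 ± 0.20 over vehicle (edgeR adjusted p = 0.0246) and 0.76 over day 0 (adjusted p = 0.00697). Scaling by library totals, leaving out drug replicate 2 or vehicle replicate 1, and the use of DESeq2 each ended the call over vehicle. None of its coding words of 50 bases occurs in another member. Its annotated transcript of 2620 bases holds no match to the stem-loop pattern and has AATAAA, the common polyadenylation signal, starting 22 bases before its end.

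**Figure D2:**
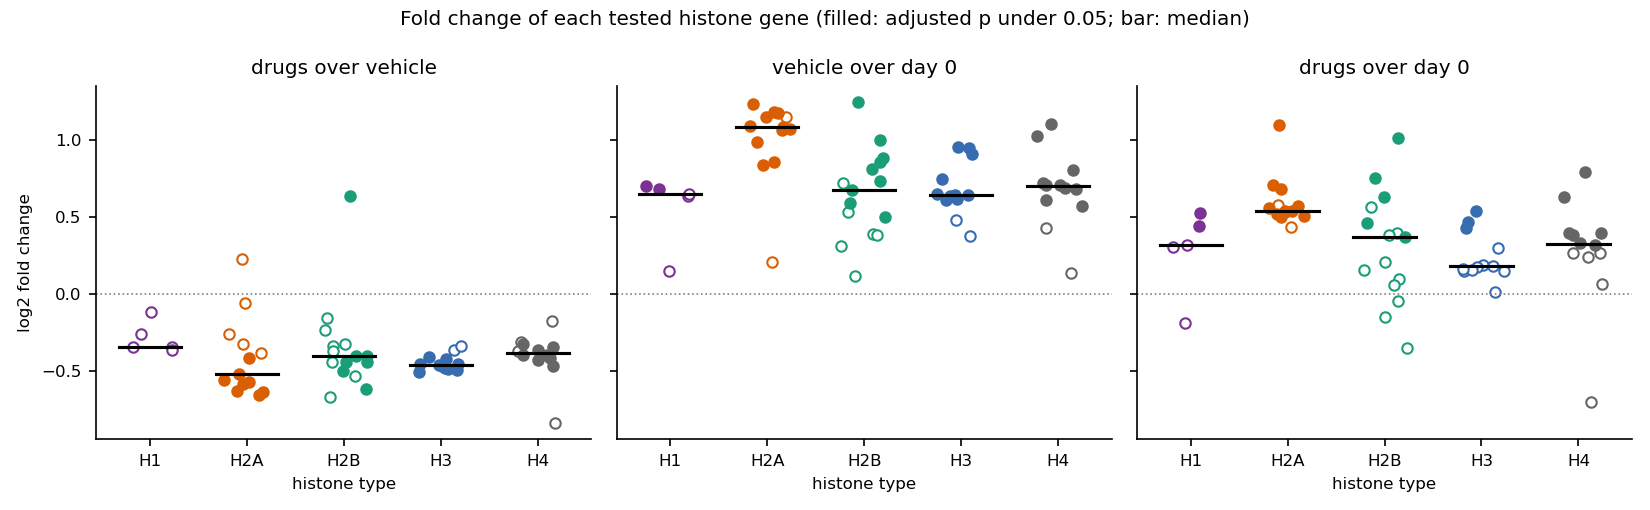
Log2 fold change (vertical axis) of each of the 57 tested histone genes by histone type (horizontal axis) for drugs over vehicle, vehicle over day 0 and drugs over day 0; filled points passed edgeR's adjusted threshold and the bar is the median. With the drugs 55 of 57 points lie below 0 relative to vehicle, and all 57 lie above 0 for vehicle over day 0, where the H2A median is 1.09.

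**Figure D3:**
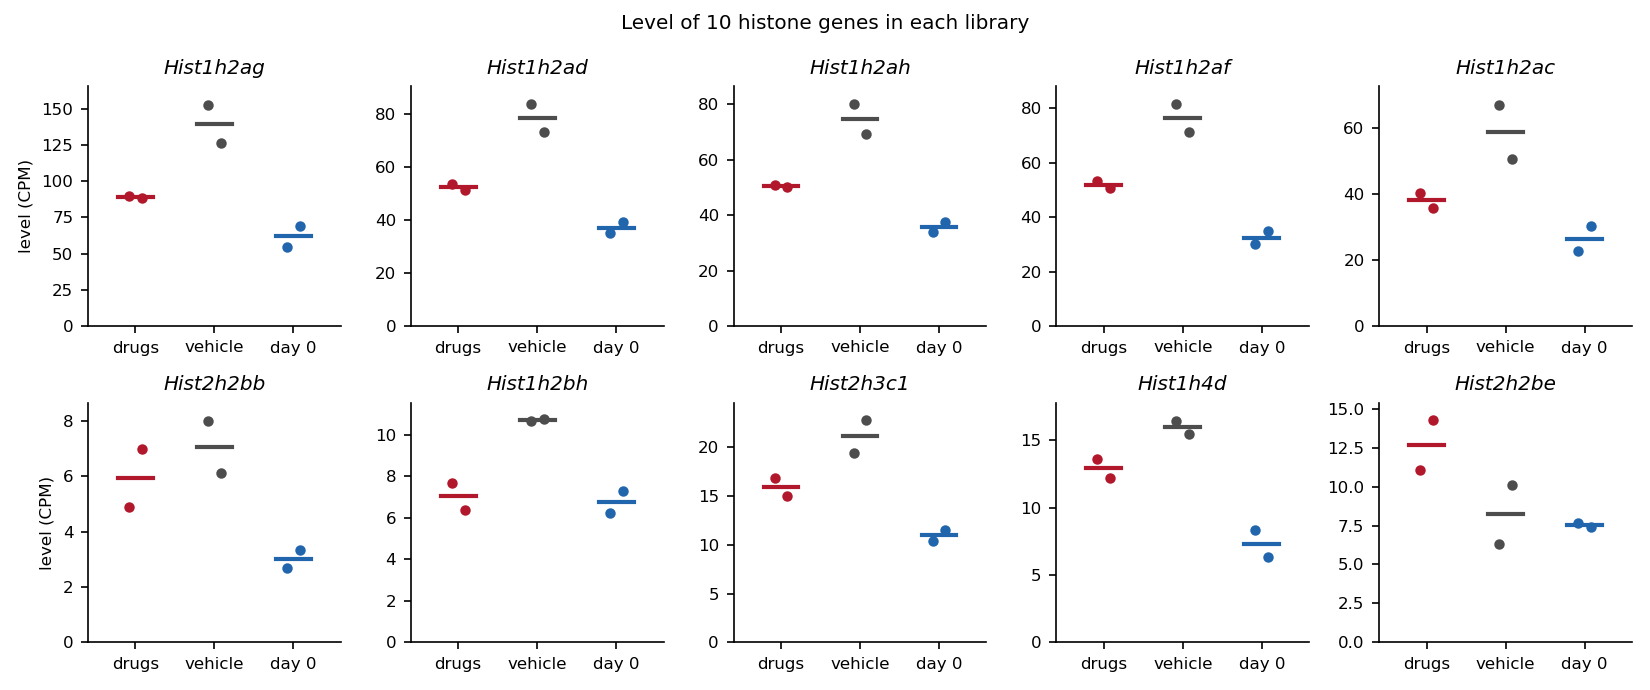
Level in CPM (vertical axes, from 0) of 10 histone genes in drug, vehicle and day 0 cultures; each point is 1 library and each bar the mean of 2. The H2A genes of the top row share 1 pattern with the vehicle cultures highest, while Hist2h2be is highest in the drug cultures, at 11.1 and 14.3 CPM.

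Vehicle against day 0 compares 3 days in DMSO with the untreated start of the culture. Of the 57 tested members, 42 were higher and 0 lower with vehicle, while 3.75% of all tested genes were higher and 3.99% lower. No member was lower at an unadjusted p under 0.05 or in DESeq2, and 49 were higher at an unadjusted p under 0.05. The median log2 change was 0.71, beside -0.02 over all tested genes, and every tested member had a positive value. H2A genes had the highest median, 1.09, with 11 of 13 called; the difference between types was not tested. For H4, H3 and H2B the counts were 10 of 12, 10 of 12 and 9 of 15, with medians of 0.70, 0.65 and 0.68. DESeq2 called 10 H2A, 10 H4, 4 H3 and 6 H2B genes higher, so the H3 count in particular depends on the tool. For H1 edgeR called 2 of 5, Hist1h1d and Hist1h1e, and DESeq2 called 1.

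Leaving out vehicle replicate 1 or day 0 replicate 1 lowered the count of higher members, as it did that over all tested genes. The member medians were then 0.63 and 0.65. DESeq2 called 31 members higher, and 255 of all 11283 tested genes, against 423 in edgeR. In 50 members both vehicle libraries lay above both day 0 libraries, a count that was not made over all tested genes. The vehicle cultures are also the reference of the drug comparison, so a high vehicle value enters both comparisons with opposite signs, and all 32 members that fell with the drugs were among the 42. A list of untailed RNAs held Rn45s and others such as small nucleolar RNAs. It summed to 158972 and 138333 CPM with vehicle and 207506 and 269236 CPM at day 0. Nearly all of each sum was Rn45s, so the sums mainly repeat its values above. The 59 tested genes of the list had a median log2 change of -0.31. Of these, 1 was called higher and 2 lower, beside 3.75% and 3.99% of all tested genes. Rn45s was the highest gene of that list in all libraries, and only DESeq2 called it in this comparison. The part of this in the histone values was not tested.

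Hist1h2af rose by 1.24 ± 0.09 on the log2 scale (edgeR adjusted p = 1.37e-05), a 2.36-fold difference between vehicle and day 0. Hist1h2ag rose 2.27-fold (edgeR adjusted p = 4.83e-05), Hist1h2ac 2.26-fold (adjusted p = 0.00048) and Hist1h2an 2.22-fold (adjusted p = 1.82e-05). The other named H2A genes of this comparison, Hist1h2ad, Hist1h2ah, Hist1h2ai and Hist1h2ae, rose between 1.99-fold and 2.13-fold. Hist1h2ae, which unlike most of these has a terminal AATAAA in an annotated transcript, had 16.6 and 14.5 CPM with the drugs, 21.8 and 19.3 CPM with vehicle and 9.93 and 10.9 CPM at day 0. The 3 groups did not overlap in Hist1h2ae.

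Hist1h4d had 13.6 and 12.2 CPM with the drugs, 16.4 and 15.5 CPM with vehicle and 8.32 and 6.32 CPM at day 0. It rose 2.15-fold with vehicle over day 0 (edgeR adjusted p = 0.000852), and was not called for drugs over vehicle (log2 change -0.31 ± 0.14, adjusted p = 0.104). Hist2h3c1, the H3 gene with the highest mean count, had 16.8 and 14.97 CPM with the drugs, 19.4 and 22.7 CPM with vehicle and 10.4 and 11.5 CPM at day 0, and rose 1.93-fold with vehicle over day 0 (edgeR adjusted p = 0.000883). Other members hold 72.7% of the coding words of Hist2h3c1 and all of those of Hist2h3c2, and both genes had close values in each library.

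Hist2h2bb (chr3:96269700-96270192) gives the largest rise of a gene whose coding words are its own. It had 4.89 and 6.97 CPM with the drugs, 7.98 and 6.10 CPM with vehicle and 2.69 and 3.32 CPM at day 0. Drugs and vehicle overlapped and both lay above day 0. Its log2 change was 1.25 ± 0.23 for vehicle over day 0 (edgeR adjusted p = 0.00648), 1.01 ± 0.24 for drugs over day 0 (adjusted p = 0.00403) and -0.23 ± 0.21 for drugs over vehicle (adjusted p = 0.424).

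Drugs against day 0 spans both the 3 days of culture and the treatment. With the drugs 28 of the 57 tested members were higher and 0 lower than at day 0, while 22.7% of all tested genes were higher and 21.2% lower. No member was lower at an unadjusted p under 0.05 or in DESeq2. The median log2 change was 0.39, beside -0.0075 over all tested genes. This comparison shares the drug libraries with the first and the day 0 libraries with the second, so it adds no further evidence on direction. H2A genes again had the highest count, 11 of 13, with a median of 0.54, against 7 of 12 for H4, 5 of 15 for H2B, 3 of 12 for H3 and 2 of 5 for H1. DESeq2 called 10 H2A, 2 H4, 3 H2B, 2 H3 and 0 H1 genes higher. Leaving out drug replicate 1, drug replicate 2 or day 0 replicate 1 lowered the count of higher members, as it did that over all tested genes. The member medians were then 0.35, 0.38 and 0.28. DESeq2 called 17 members higher, and 1869 of all 11283 tested genes, against 2564 in edgeR.

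Hist1h2af was 1.60-fold higher with the drugs than at day 0 (log2 change 0.68 ± 0.10, edgeR adjusted p = 0.000114). Hist1h4d was 1.73-fold higher (adjusted p = 0.00105) and Hist1h2ak, another H2A gene, 1.63-fold higher (adjusted p = 0.00353). Hist1h2ak had 7.37 and 7.23 CPM with the drugs, 9.17 and 9.87 CPM with vehicle and 4.31 and 4.65 CPM at day 0, with no overlap between groups. Over day 0 the median for H3 was 0.18, and all 3 H3 genes that were called lie in the Hist2 cluster: Hist2h3b, Hist2h3c1 and Hist2h3c2. In 36 members both drug values lay between the vehicle and the day 0 values without overlap, a count that was not made over all tested genes.

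All 5 tested linker histone genes shared under 30% of their coding words with other members, from 0% for Hist1h1a and Hist1h1b to 26.5% for Hist1h1d. Hist1h1e, the H1 gene with the highest mean count, had 17.4 and 18.6 CPM with the drugs, 23.0 and 20.1 CPM with vehicle and 11.7 and 15.04 CPM at day 0. Its groups did not overlap. It rose with vehicle over day 0 by 0.70 ± 0.13 on the log2 scale (edgeR adjusted p = 0.00713) and with the drugs over day 0 by 0.44 ± 0.14 (edgeR adjusted p = 0.0179, DESeq2 adjusted p = 0.0566, which ends the call), and its drug-over-vehicle change was -0.26 ± 0.13 (adjusted p = 0.149). Its counted model overlaps that of Hist1h2be over 20.1% of its length. Hist1h1c, which has AATAAA near the end of its transcript, had 10.3 and 10.97 CPM with the drugs, 14.4 and 12.5 CPM with vehicle and 12.8 and 11.3 CPM at day 0, where vehicle and day 0 overlapped. It was called in no comparison.

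Split by shared sequence, a split chosen after the values were seen, the 11 tested members that share under 30% of their words had 1 gene higher and 0 lower with the drugs relative to vehicle, against 0 higher and 32 lower of the 46 others. Of the 11, 2 were lower at an unadjusted p under 0.05, and DESeq2 called 0 lower. Their median log2 change was -0.26, against -0.43 in the others. For vehicle over day 0, 3 of the 11 were higher with a median of 0.64, against 39 of 46 with a median of 0.73. For drugs over day 0, 5 of the 11 were higher with a median of 0.44, against 23 of 46 with a median of 0.39. At the word length used for this split, the medians of the 2 sets were thus close relative to day 0. For vehicle over day 0, the median of members under 30% was 0.43 with words of 36 bases (9 members). It was 0.68 with words of 75 bases (15 members). For drugs over day 0 these medians were 0.44 and 0.53. Medians of the other members were not taken at these lengths, so the closeness is shown for 1 word length only. Over all tested genes, 18.1% were higher and 13.8% lower for drugs over vehicle. The shares higher were 3.75% for vehicle over day 0 and 22.7% for drugs over day 0. The 11 had a median level of 4.22 CPM per kb and the 46 others 25.2 CPM per kb, so level and shared sequence moved together. Counts per gene differ with both, and their parts in the calls were not tested.

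**Figure D4:**
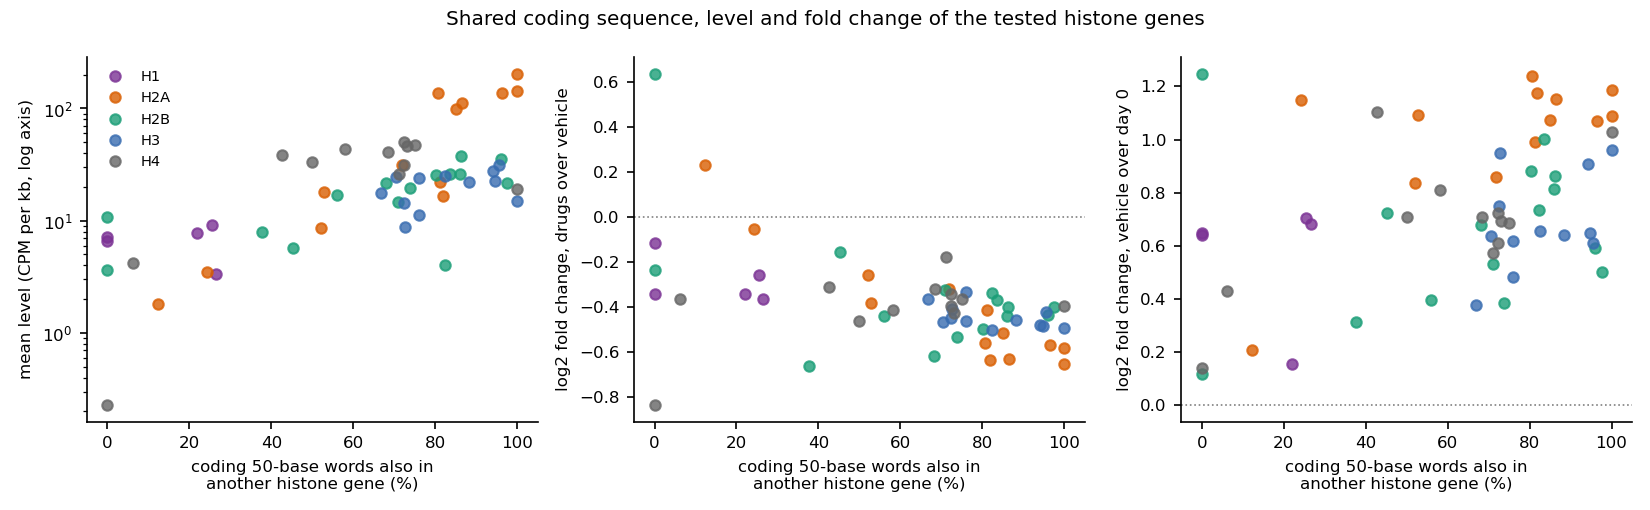
Share of coding 50-base words that occur in another histone gene (horizontal axes, percent) against mean level in CPM per kb on a log axis, log2 fold change of drugs over vehicle and log2 fold change of vehicle over day 0 for the 57 tested members, coloured by histone type. The 5 genes above 100 CPM per kb are H2A genes with over 80% of their words shared, and the 2 positive values for drugs over vehicle are 0.64 for Hist2h2be and 0.23 for Hist3h2a.

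The end of the annotated transcript gave a second split, also chosen after the values were seen. AATAAA occurred within the last 50 bases of a transcript of 15 members, 11 of them tested. Of these 11, 4 fell and 1 rose with the drugs relative to vehicle and 5 rose with vehicle over day 0, against 28 lower and 37 higher of the 46 without it. Over all tested genes, 13.8% fell and 18.1% rose with the drugs relative to vehicle, and 3.75% rose with vehicle over day 0. The medians were -0.34 and 0.53 in the 11 and -0.43 and 0.72 in the 46. The 11 had a median level of 7.72 CPM per kb and the 46 others 24.45 CPM per kb. The parts of level and transcript end in the calls were not tested. Members counted over coding length alone and members counted over more had similar medians, -0.43 and -0.39 for drugs over vehicle and 0.77 and 0.65 for vehicle over day 0.

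H2A and H2B genes of the family often lie head to head and share the stretch between them as a promoter. In the deposited models 11 such pairs start 173 to 335 bases apart, and both genes were tested in 9. The H2A gene had the higher level per length in 6 of the 9, by up to 10.4-fold for Hist1h2ag over Hist1h2bj, and the lower one in 3, down to 0.481-fold for Hist1h2ak over Hist1h2bn. This order depends on the length of the models. Hist1h2ac, lower per length, had a mean of 41.2 CPM on 2493 bases, against 15.6 CPM on 728 bases for Hist1h2bc. Hist2h2ac, higher per length, had 3.37 CPM on 390 bases, against 9.47 CPM on 2618 bases for Hist2h2be. The log2 change of vehicle over day 0 was larger for the H2A gene in all 9 pairs, from 0.84 to 1.19 for H2A and from 0.12 to 1.001 for H2B. The difference within pairs was not tested. Hist1h2bj, the partner of Hist1h2ag named here for that pairing, had 6.25 and 6.26 CPM with the drugs, 9.72 and 8.36 CPM with vehicle and 5.62 and 8.56 CPM at day 0, where vehicle and day 0 overlapped.

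Promoters are shown for the H2A gene with the highest level, an H4 gene and an H1 gene, to set beside their values the boxes by which histone types differ. Each is the 160 bases before the annotated start from RefSeq on GRCm38.p6, with capitals at any match on either strand. The motifs searched were the TATA box written as TATAAA, the CCAAT box by those letters, the octamer written as ATTTGCAT and the AC box written as AAACACA.
Hist1h2ag: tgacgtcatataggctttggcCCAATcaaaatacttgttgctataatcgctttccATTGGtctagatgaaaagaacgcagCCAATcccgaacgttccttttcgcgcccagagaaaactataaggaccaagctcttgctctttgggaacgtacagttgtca
Hist1h4d: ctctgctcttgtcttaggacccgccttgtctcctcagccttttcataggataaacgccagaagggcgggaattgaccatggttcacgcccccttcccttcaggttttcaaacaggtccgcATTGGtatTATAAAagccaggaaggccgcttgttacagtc
Hist1h1e: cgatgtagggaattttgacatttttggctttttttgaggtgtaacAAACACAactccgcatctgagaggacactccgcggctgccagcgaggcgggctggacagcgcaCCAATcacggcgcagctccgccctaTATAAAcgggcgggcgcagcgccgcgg

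They lie at chr13:22042950-22043109 on the minus strand for Hist1h2ag, chr13:23581408-23581567 on the plus strand for Hist1h4d and chr13:23622559-23622718 on the minus strand for Hist1h1e. RefSeq gave 62 promoters for 61 members, from 250 bases before to 50 after the start. A CCAAT match on either strand was present in 85.5% of them, against 37.4% of 32851 promoters of the same length. It was present in all 17 H2A, 17 H2B, 10 H3 and 6 H1 promoters and in 3 of 12 H4 promoters. TATAAA was present in 56.5%, against 13.6% of all promoters. The octamer was present in 7 of 17 H2A and 7 of 17 H2B promoters and in no H1, H3 or H4 promoter, against 1.74% of all promoters. The AC box was present in 5 of 6 H1 promoters, 2 of 17 H2A and 2 of 17 H2B promoters, against 7.18% of all. Matches that overlap another motif were all counted, and a match describes letters only.

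Genes that make, process or package histone mRNA and protein were read from lists put together for this tissue and family with earlier results of these data known. Slbp, which encodes the stem-loop binding protein, had 96.1 and 95.7 CPM with the drugs, 96.5 and 113 CPM with vehicle and 107 and 103 CPM at day 0. Its log2 change was -0.12 ± 0.08 for drugs over vehicle (edgeR adjusted p = 0.261), and it was called in no comparison. Npat, the transcriptional coactivator of the histone locus body, had log2 changes of -0.14, 0.08 and -0.06 for drugs over vehicle, vehicle over day 0 and drugs over day 0. Casp8ap2, a histone locus body component also called FLASH, had -0.10, 0.12 and 0.02. Neither was called. Of the U7-specific proteins, Lsm10 was not called, and Lsm11 rose by 0.48 ± 0.10 with vehicle over day 0 (edgeR adjusted p = 0.0124), at 27.2 and 25.4 CPM with the drugs, 29.7 and 27.4 CPM with vehicle and 19.7 and 21.4 CPM at day 0.

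Of 28 genes for histone pre-mRNA processing and mRNA decay, 4 fell and 1 rose with the drugs relative to vehicle, while 13.8% of all tested genes fell and 18.1% rose, so the share lower was near that of all genes. The median log2 change was -0.10. Snrpb, a core Sm protein, fell by 0.31 ± 0.07 (edgeR adjusted p = 0.0062), Cpsf2, a subunit of the cleavage complex, fell by 0.26 ± 0.07 (adjusted p = 0.0158) and Cstf2t rose by 0.36 ± 0.09 (adjusted p = 0.00672). For vehicle over day 0, Lsm11 was higher and Lsm4 lower, and DESeq2 did not call Lsm4. For drugs over day 0, 4 were higher and 11 lower in edgeR, with 22.7% and 21.2% over all tested genes, and 0 higher and 5 lower in DESeq2.

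Of 11 genes for histone gene transcription, 2 fell with the drugs relative to vehicle, a share near the 13.8% of all tested genes: Hira, by 0.32 ± 0.07 (edgeR adjusted p = 0.0042), and the cell cycle repressor E2f4, by 0.32 ± 0.07 (adjusted p = 0.0063). None rose in edgeR, at an unadjusted p under 0.05 or in DESeq2. Ccne2, cyclin E2, was higher with vehicle than at day 0 by 0.36 ± 0.09 (adjusted p = 0.032), and DESeq2 did not call it. For drugs over day 0, 2 of the 11 fell, a share near the 21.2% of all tested genes.

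Of 19 histone chaperone and chromatin assembly genes, 6 fell and 1, Atrx, rose with the drugs relative to vehicle, while 13.8% of all tested genes fell and 18.1% rose, and DESeq2 called 4 lower. The median log2 change was -0.16. Asf1a, a chaperone of H3 and H4, had 25.6 CPM in both drug cultures, 33.1 and 39.1 CPM with vehicle and 39.3 and 40.1 CPM at day 0. It fell by 0.50 ± 0.10 relative to vehicle (edgeR adjusted p = 0.00187) and by 0.64 ± 0.10 relative to day 0 (adjusted p = 0.000191). Supt16h and Ssrp1, which encode the subunits of the FACT complex, and Chaf1b of chromatin assembly factor 1 fell by 0.29, 0.21 and 0.32 relative to vehicle, and the call of Chaf1b was lost in DESeq2 (adjusted p = 0.0535). For vehicle over day 0 none of the 19 was called by edgeR or DESeq2, and 2 had an unadjusted p under 0.05, 1 in each direction. For drugs over day 0, 2 were higher and 9 lower, with 22.7% and 21.2% over all tested genes.

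Of 30 S phase genes, 9 fell and 1, Tk1, rose with the drugs relative to vehicle, while 13.8% of all tested genes fell and 18.1% rose, and 11 were lower with the drugs than at day 0, with 21.2% over all tested genes. The median log2 change over vehicle was -0.16, and DESeq2 called 7 lower and did not call Tk1. Mcm2, of the replicative helicase, had 172 and 171 CPM with the drugs, 227 and 236 CPM with vehicle and 229 and 229.7 CPM at day 0, and fell by 0.43 ± 0.07 relative to vehicle (edgeR adjusted p = 0.000379). Mcm6 fell by 0.42 ± 0.07 (adjusted p = 0.000607) and Uhrf1, which reads methylation on newly copied DNA, by 0.38 ± 0.07 (adjusted p = 0.00148). For vehicle over day 0 the S phase genes had a median of 0.02, and edgeR and DESeq2 called none of them, with 7 at an unadjusted p under 0.05, 5 of them higher. For drugs over day 0 the S phase median was -0.15, where that of the histone family was 0.39. The difference between the list and the family was not tested, and Slbp is also on the processing list.

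**Figure D5:**
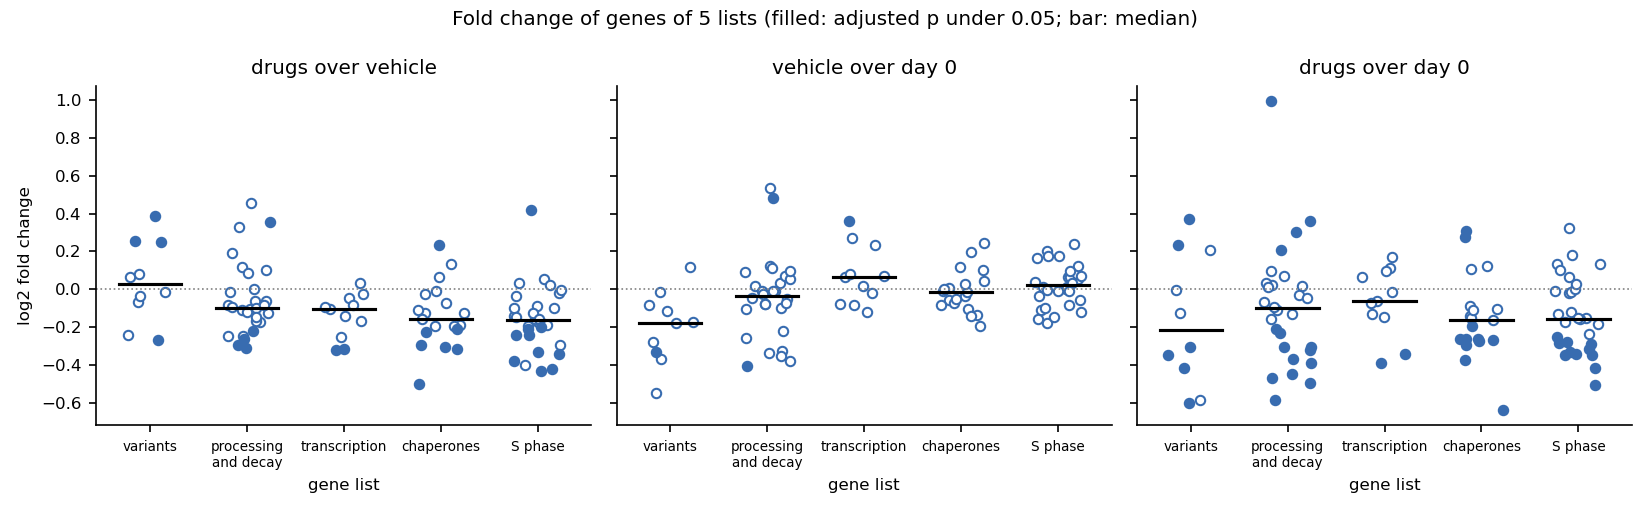
Log2 fold change (vertical axis) of the tested genes of 5 lists (histone variants, histone mRNA processing and decay, histone gene transcription, histone chaperones and S phase) for drugs over vehicle, vehicle over day 0 and drugs over day 0; filled points passed edgeR's adjusted threshold and the bar is the median. For vehicle over day 0 the medians lie between -0.18 and 0.06, below the median of 0.71 of the histone family.

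Histone variant genes with other names lie outside the family. Of 10 tested variants, 3 rose and 1 fell with the drugs relative to vehicle, with 18.1% and 13.8% over all tested genes. H2afx, whose protein marks DNA breaks when phosphorylated and which can also make a stem-loop mRNA like that of the family, had 89.6 and 84.2 CPM with the drugs, 71.3 and 74.5 CPM with vehicle and 75.1 and 72.3 CPM at day 0, and rose by 0.25 ± 0.07 relative to vehicle (edgeR adjusted p = 0.0158, DESeq2 adjusted p = 0.0786). H2afv and H2afy rose by 0.39 and 0.26. H3f3b, a source of the replication-independent H3.3, fell to 268 and 285 CPM with the drugs, against 316 and 351 CPM with vehicle and 446 and 394 CPM at day 0, and was lower in all 3 comparisons (edgeR adjusted p = 0.0288 for drugs over vehicle, 0.0331 for vehicle over day 0 and 0.000122 for drugs over day 0). H3f3a was called in none. H2afz was lower with the drugs than at day 0 by 0.41 ± 0.09 (adjusted p = 0.00338) and had log2 changes of -0.24 and -0.17 in the other comparisons, neither called.

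Markers of other cell types were read beside these results. Of 5 macrophage markers 2 were tested and both rose with the drugs relative to vehicle; their list summed to 77.0 to 77.4 CPM with the drugs, 20.5 to 24.4 CPM with vehicle and 28.8 to 33.0 CPM at day 0, with C1qa and C1qc at 0 in every library. The mature neutrophil list, with Camp at 0, summed to at most 3.95 CPM in any library, the erythroid list, with Hba-a1 and Hba-a2 at 0, to at most 2.57 CPM and the T cell list, with Cd3d, Cd3e, Cd3g and Cd4 at 0, to at most 1.16 CPM. The B cell list summed to between 11.8 and 16.03 CPM and the fibroblast list, with Col3a1 at 0, to between 20.99 and 39.6 CPM. For vehicle over day 0, edgeR called 1 of 2 tested neutrophil genes higher and 1 of 2 each of fibroblast and macrophage genes lower. Over all tested genes, 3.75% were higher and 3.99% lower. For drugs over vehicle, edgeR called 1 of 2 tested fibroblast genes higher, and 1 B cell gene higher and 1 lower. DESeq2 kept only the macrophage call of the first and the fibroblast call of the second comparison. Progenitor markers summed to 12600 to 13188 CPM with the drugs, 10075 to 10412 CPM with vehicle and 9001 to 9313 CPM at day 0. With the drugs relative to vehicle, 6 of 12 rose and 2 fell, while 18.1% of all tested genes rose and 13.8% fell. Their part in the histone values was not tested.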

How the data were processed

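Poly(A)-selected RNA of 6 cultures in 3 groups of 2 was analysed. The authors deposited 1 table of raw counts per gene, with a length column in bases. The submitters' processing notes name STAR 2.7.0f, deepTools 3.0.2 and the mm10 build. The sample descriptions refer to the counts as featurecount. Not given in the sources used: the version of the counting tool, its annotation, its use of strand and its handling of reads that match several genes.

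Counts were scaled by TMM and tested in edgeR 4.0.16 (R 4.3.3, limma 3.58.1) with a quasi-likelihood fit of all 3 groups. Of 23337 genes, 11283 passed filterByExpr. P-values were adjusted by Benjamini-Hochberg over these, with a threshold of 0.05. The common biological coefficient of variation was 0.0592 on 3 residual degrees of freedom. CPM are counts over the TMM-scaled library size, and CPM per kb divides them by the deposited length. DESeq2 1.42.0 was an alternative. The test was tried on simulated data.

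The members and gene lists were chosen with earlier results of these data known. Named genes were the 5 members with the highest level per length, up to 10 called members with the smallest p per comparison, the member with the highest mean count per histone type, up to 3 called genes with the smallest p per list and comparison, and key genes of histone mRNA processing and histone variants. A few of these are given by range only. Dbf4 of the S phase list and the genes of the untailed list other than Rn45s are not given. Transcripts and stem-loops came from GENCODE M21 and promoters from RefSeq, both on GRCm38. Sequences were handled in Python 3.11.15 with pandas 2.3.3 and figures drawn with matplotlib 3.10.9.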

Additional observations from a re-analysis of the deposited data

How the results depend on the processing

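With 2 cultures per group, single libraries moved the counts of called histone genes, and those over all tested genes too. For drugs over vehicle, the 32 lower members became 9 in DESeq2 and between 7 and 39 when 1 library was left out, and the 1 higher member (Hist2h2be) became 0 in DESeq2 and with library totals, and between 0 and 1 when 1 library was left out. For vehicle over day 0, the 42 higher members became between 24 and 44 when 1 library was left out. For drugs over day 0, the 28 higher members became 17 in DESeq2 and between 13 and 28 when 1 library was left out. No member was called lower than day 0 under any alternative run. Scaling by library totals without TMM moved the median of all genes for vehicle over day 0 to 0.10, against -0.02 with TMM, and the H4 sum to 1.82 times day 0 with vehicle and 1.39 times with the drugs. The labels share replicate numbers across groups, and the main fit did not pair them. Deviations of same-numbered libraries had correlations of 0.081, -0.060 and -0.199 between groups. With 2 cultures per group these cannot settle whether the cultures were paired. A replicate block gave 22 lower and 1 higher, 35 higher and 24 higher members in the 3 comparisons.

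Some values that had not passed the test changed sign, and none of the reversed values passed it. With library totals, vehicle over day 0 gave 0.11 for H2afx, 0.040 for H3f3a and 0.12 for Slbp, and drugs over day 0 gave 0.086 for H3f3a, 0.042 for Lsm10 and 0.034 for Npat. With no filter, Slbp gave 0.0062 (vehicle over day 0) and H3f3a 0.00076 (drugs over day 0), and Slbp gave 0.0064 with only the compared groups. With 1 library left out, vehicle over day 0 ranged from -0.11 to 0.100 for Slbp, -0.049 to 0.016 for H2afx, -0.20 to 0.045 for H3f3a, -0.64 to 0.019 for Lsm10, -0.049 to 0.21 for Npat and -0.24 to 0.42 for Hist2h2be. Drugs over day 0 ranged from -0.071 to 0.19 for Hist1h2bh, -0.13 to 0.12 for H3f3a, -0.31 to 0.35 for Lsm10, -0.19 to 0.065 for Npat and -0.040 to 0.068 for Casp8ap2. Drugs over vehicle ranged from -0.040 to 0.19 for H3f3a and -0.044 to 0.17 for Rn45s. The causes were not tested. Shared reads, low counts and 2 cultures per group limit single genes.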
